A study of Mus musculus with 9 samples.

Results

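The proteasome subunit genes are the rows of the count files whose symbol is Psma, Psmb, Psmc, Psmd, Psme or Psmf followed by digits only, without the interferon-induced Psmb8 and Psmb9. The rule uses names and no measured value, and it found 42 of the 40879 rows. Of these, 40 had enough counts to be among the 11980 genes tested. Psma8, an alpha subunit of the testis, was at 0 counts throughout, which allows a level of up to 0.0488 CPM (counts relative to library size) over the 9 libraries together (3 counts, counting error only). Psmb11, a beta subunit of the thymus, had 1 count, in normal 2, and neither was tested.

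The study made 3D skeletal muscle constructs by embedding cells of C2C12, a mouse myoblast line of wild-type genotype that fuses into myotubes, in matrix prepared from muscle tissue. Every construct spent 2 days in growth medium and 10 days in differentiation medium with 10% equine serum, and RNA was read from the transcript 3′ end. The 3 conditions had 3 libraries each. Normal constructs were never irradiated, irradiated constructs were given X-rays once at 20 Gy so that their cells would become senescent, and cocultured constructs were kept beside an irradiated construct without being irradiated themselves. The series design text places 2 constructs of a condition in each normal or irradiated dish and counts 2 samples for each of these conditions, while the labels describe 3 libraries, so some replicates may come from 1 dish, and the spread behind every p-value may be partly technical. All constructs come from 1 cell line and no primary muscle was sampled, and in bulk RNA fewer cells of a type and less RNA per cell cannot be told apart.

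The proteasome is the protease that degrades proteins tagged with ubiquitin. Its core particle is a barrel of stacked rings, in which alpha subunits form the gate and beta subunits hold the protease sites, and its regulatory particle has ATPase subunits that unfold substrates and non-ATPase subunits that bind and remove ubiquitin. In muscle the proteasome takes much of the protein turnover of growth and wasting, and loss of proteasome function is among the changes described in ageing and senescent cells. When it is inhibited, cells raise the subunit genes together through the transcription factor encoded by Nfe2l1, which binds antioxidant response elements in their promoters.

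The promoter sequences are shown because that element is the known shared control of these genes. RefSeq windows of 300 bases (250 before and 50 after the transcript start, build GRCm38.p6) were at hand for 35 of the 42 genes. The core of the element, TGACNNNGC, was searched on both strands and was found in 6 of these 35 genes (17.1%), beside 14% of 27025 genes with windows of the same length. The share near the background says only how often these letters occur. Of the 6 matches, those of Psmb5, Psmb6, Psmd9 and Psme4 began 47, 9, 31 and 7 bases before the start, and they are printed with the match in capitals and the strand of the gene. In Psme4 the match lies on the opposite strand.
Psmb5, chr14:54618008-54618068, minus strand: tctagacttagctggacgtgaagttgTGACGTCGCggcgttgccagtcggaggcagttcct
Psmb6, chr11:70525322-70525382, plus strand: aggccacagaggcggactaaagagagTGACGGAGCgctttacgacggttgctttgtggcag
Psmd9, chr5:123228133-123228193, plus strand: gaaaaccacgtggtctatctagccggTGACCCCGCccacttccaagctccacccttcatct
Psme4, chr11:30771742-30771802, plus strand: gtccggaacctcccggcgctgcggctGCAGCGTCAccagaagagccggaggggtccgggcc
Psmc6 and Psmd12 held the other matches, further before the start. The box CCAAT was found in 13 of the 35 genes (37.1%) against 41.1% of all genes, and ATGGCGGC in 2 (5.71%) against 2.6%.

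Libraries held 4840993 to 8290468 counts. Normal 3 and irradiated 1 stood apart by their muscle genes, with 66593 and 38611 normalised CPM summed over 9 myoblast and myotube markers, against 3034 to 6174 in the other 7 libraries. Normalised CPM are CPM after scaling by TMM, which matches libraries on the bulk of their genes. At least 8 of these 9 markers had counts in every library, and Myf5, a myoblast factor, was at 0 in all 3 irradiated libraries. The summed markers of macrophages reached at most 37.2, those of endothelial cells 31.1, those of Schwann and neural cells 42.7 and those of adipocytes 98.0 normalised CPM (in normal 3, with Plin1 at 0 in every library). The 3 markers of fibro-adipogenic cells summed to 316 to 388 in normal, 375 to 419 in irradiated and 538 to 815 in cocultured libraries, so the cocultured ones lay above all others. Ly6a held most of these sums and Dpt was at 0 in all normal libraries. The part of these markers in the values of cocultured constructs was not tested. Irradiated 2 and irradiated 3 had the most tested genes without a count, 34.7% and 32.0%, beside 5.13% to 22.4% in the other libraries. Genes averaging 20 to 50 normalised CPM over the normal and cocultured libraries were also examined, a choice that did not use the irradiated libraries. Of these genes 20.5% and 17.1% were at 0 in irradiated 2 and irradiated 3. The share was 5.23% in irradiated 1 and at most 3.54% in normal and cocultured libraries.

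Proteasome subunit genes were expressed in all 9 constructs, and none of them passed the test between conditions. Their counts together took 0.481%, 0.472% and 0.332% of normal 1, 2 and 3, then 0.410%, 0.512% and 0.507% of irradiated 1, 2 and 3, and 0.492%, 0.593% and 0.554% of cocultured 1, 2 and 3. The cocultured libraries lay above the normal ones on this scale and the irradiated ones overlapped with both. After TMM scaling the same genes summed to 4982 to 5994 normalised CPM in normal, 3991 to 5660 in irradiated and 4109 to 4930 in cocultured libraries, so the cocultured libraries then lay below the normal ones. Which group was higher therefore depends on the scaling, and the plot of sums by library shows both scales.

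**Figure D1:**
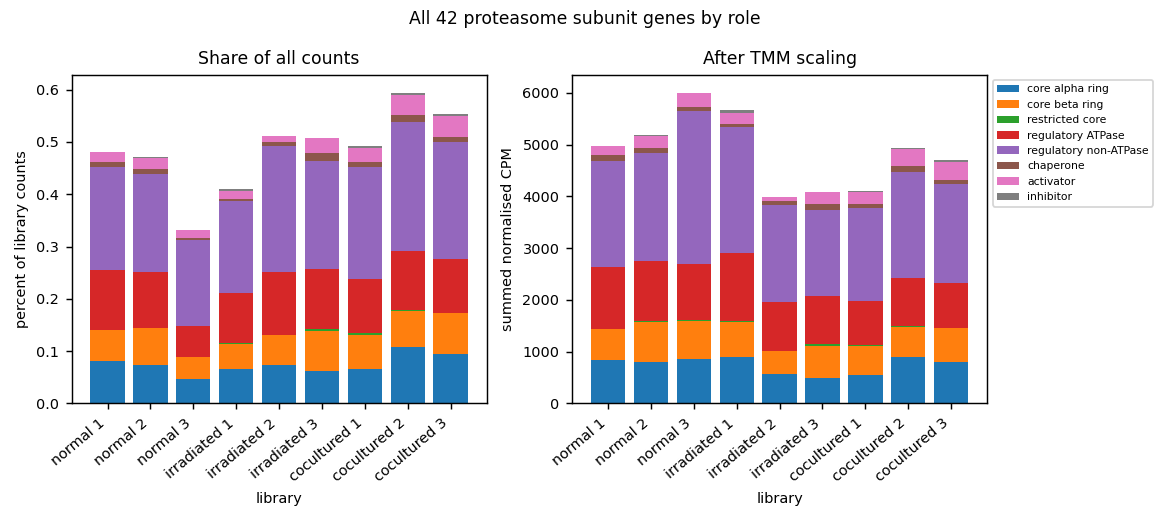
Stacked bars of all 42 proteasome subunit genes by role in each of the 9 libraries, as percent of all counts (left) and as summed TMM-normalised CPM (right), with Psma8, Psmb10 and Psmb11 as the restricted core. Normal 3 has the lowest share, 0.332% of counts, and the highest normalised sum, 5994 CPM.

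The first comparison asked what irradiation changed. None of the 40 tested subunits passed edgeR's quasi-likelihood test at a Benjamini-Hochberg adjusted p under 0.05, as 0.0584% of all tested genes did in irradiated against normal constructs. At an unadjusted p under 0.05 there was 1 member, Psmc1, where 10.3% of all genes passed. DESeq2 and limma voom called no member either, with 1 and 3 members at an unadjusted p under 0.05. Log2 fold changes were negative for 28 members and positive for 12, beside 58.2% negative among all genes. Their median was -0.34, beside -0.21 over all genes tested. Scaled by library totals the members' median was 0.07 and that of all genes 0.14, with 17 of 40 negative, so the members lay below the median gene by 0.13 with TMM and by 0.06 with totals. The 3 irradiated libraries lay wholly below the 3 normal ones in 2 members, Psmb2 and Psmd8 (5%; 11.8% of all genes), and above them in none (3.94% of all genes), where groups did not overlap in 15.7% of all genes in either direction. These orders are of TMM-scaled values, and by library totals Psmb2 and Psmd8 overlapped between the groups.

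The second comparison asked what sharing a dish with an irradiated construct changed, against the same normal libraries. No member passed in cocultured constructs (edgeR, 0% of all genes called), and 1, again Psmc1, had an unadjusted p under 0.05, where 4.11% of all genes did. DESeq2 and limma voom called none, with 1 and 2 members at an unadjusted p under 0.05. Of 40 members 27 had a negative log2 fold change, beside 53% of all genes, with a median of -0.28 beside -0.07. With library totals as the scale only 5 were negative and the medians were 0.26 for the members and 0.48 for all genes, and the members lay 0.21 (TMM) or 0.22 (totals) below the median gene. In 6 members (15%) the groups did not overlap, beside 13.2% of all genes. Psma1, Psma3 and Psmd14 were higher in every cocultured library (5.66% of all genes), and Psmc1, Psmd2 and Psmd13 lower (7.51% of all genes). These orders are of TMM-scaled values. By library totals Psma1, Psma3 and Psmd14 stayed apart, while Psmc1, Psmd2 and Psmd13 overlapped between the groups.

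Irradiated constructs were then set against cocultured ones. No member passed (edgeR, 0.0334% of all genes called), and Psma1 alone had an unadjusted p under 0.05 in edgeR, where 9.58% of all genes did. DESeq2 and limma voom called none, with 1 and 4 members at an unadjusted p under 0.05. The median log2 fold change was -0.06 over 22 negative and 18 positive members, beside -0.10 over all genes with 53.3% negative. With DESeq2's size factors it was 0.04, beside 0.00. In 2 members (Psma1 and Psme1) the irradiated libraries lay wholly below the cocultured ones (5%; 10.6% of all genes) and in none above them (3.9% of all genes), where 14.5% of all genes had groups that did not overlap.

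**Figure D2:**
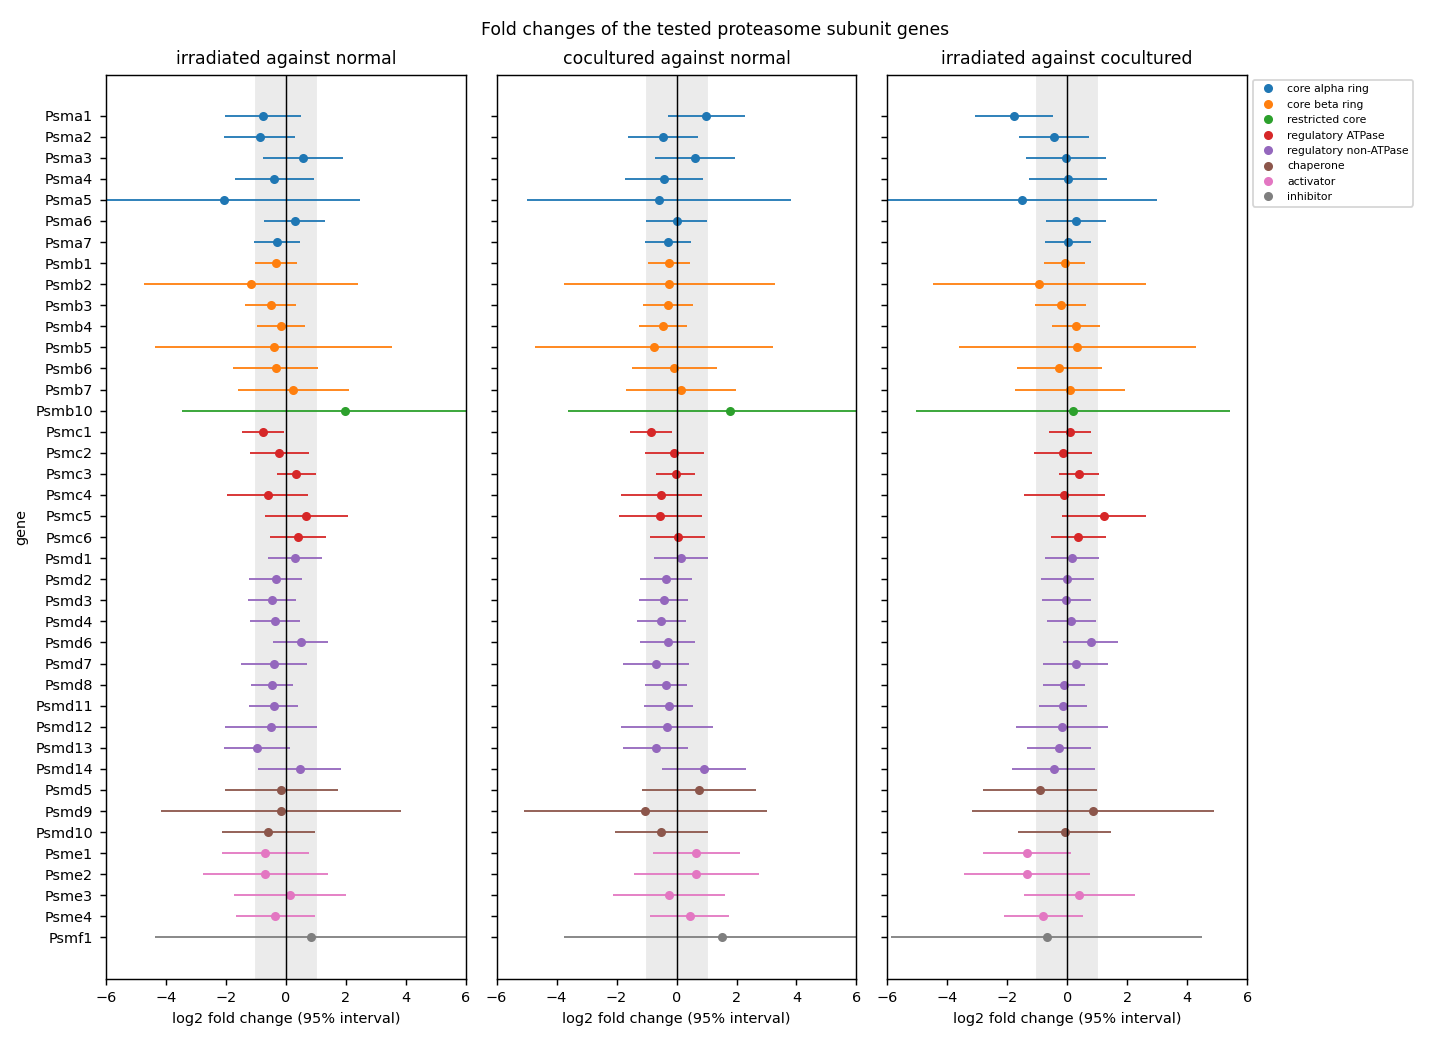
Log2 fold changes (points) with 95% intervals (lines, ended at 6 on either side) of the 40 tested genes in the 3 comparisons, ordered and coloured by role, with the range within 2-fold shaded. The interval of 1 gene in each comparison leaves out 0 (Psmc1, Psmc1 and Psma1), and those of Psma5, Psmb2, Psmb5, Psmb10, Psmd9 and Psmf1 are the widest.

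A test that was missed does not show that values were equal, and the 95% intervals of the fold changes give the sizes that fit the data. The interval lay within 2-fold in either direction for 1 member in irradiated against normal (Psmb4, 3.2% of all genes), for 3 in cocultured against normal (Psmb1, Psmc3 and Psmc6, 3.81% of all genes) and for 8 in irradiated against cocultured constructs (3.13% of all genes), among them Psma7, Psmb1 and Psmc1. It lay within 4-fold for 23, 27 and 27 of the 40 members, beside 21.1%, 23.7% and 21.1% of all genes. Standard errors of the members ran from 0.30 to 2.52 on the log2 scale in irradiated against normal constructs, with a median of 0.60 beside 1.59 for all genes. Members were also more abundant than the typical gene, with a median of 101 normalised CPM against 20.6.

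Each of the 3 catalytic beta subunits had its widest spread among the irradiated libraries, and none passed the test. Psmb5, which holds the chymotrypsin-like site, stood at 9.24, 20.2 and 33.9 normalised CPM in normal 1 to 3, at 11.7, 0.940 and 35.0 in irradiated 1 to 3 and at 18.9, 18.7 and 0 in cocultured 1 to 3. Psmb6, with the caspase-like site, stood at 92.8, 135.9 and 141.5 in normal, 139.9, 10.9 and 142.3 in irradiated and 130.2, 104.9 and 117.5 in cocultured libraries. Both were lowest among irradiated libraries in irradiated 2, and the groups overlapped. Psmb7, with the trypsin-like site, stood at 35.3, 66.1 and 42.7 in normal, 66.2, 100.4 and 3.99 in irradiated and 33.9, 70.3 and 55.6 in cocultured libraries. Its lowest value was in irradiated 3 and its highest in irradiated 2, the library in which Psmb5 and Psmb6 were low. The last exon of Psmb7 overlaps Nek6 on the opposite strand in GENCODE M21, and whether reads were counted by strand is not known here. The other beta subunits of the constitutive core, Psmb1, Psmb2, Psmb3 and Psmb4, had log2 fold changes of -1.18 to -0.17 in irradiated against normal and -0.45 to -0.24 in cocultured against normal constructs. Psmb1 was among the steadiest members, 1.75-fold between its highest and lowest library, while Psmb2 spanned 42.3-fold, with 0.587 normalised CPM in irradiated 3 and 24.8 in cocultured 2.

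Psmb10, the inducible subunit that takes the place of Psmb7 in the immunoproteasome, had few or no counts in normal constructs, at 0, 3.18 and 10.1 normalised CPM. It stood at 23.4, 0 and 29.0 in irradiated and at 30.5, 15.4 and 0 in cocultured libraries, so each of these groups held a library at 0. The log2 fold changes of 1.98 ± 2.52 (SE) and 1.79 ± 2.51 against normal did not pass (edgeR adjusted p = 1 in each). Psmb8 and Psmb9, the other inducible subunits, had counts in irradiated 1 only, 32 and 11.

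**Figure D3:**
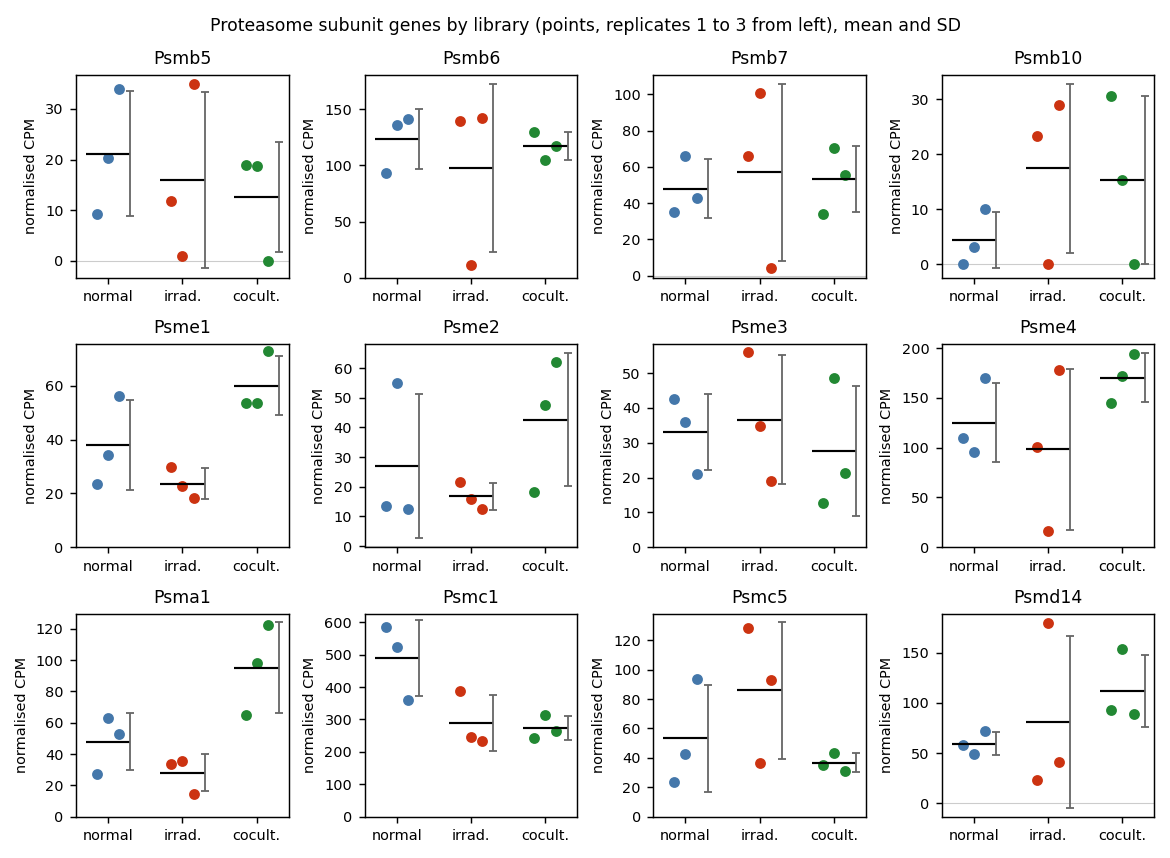
Normalised CPM of 12 proteasome subunit genes in each library (points, replicates 1 to 3 from left to right in each group), with group means (black lines) and SD (grey bars, n = 3). Single libraries set the spread, as irradiated 2 does for Psmb6 (10.9 CPM) and Psmd14 (179.5 CPM).

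Among the alpha subunits, which form the outer rings of the core and its gate, Psma1 gave the smallest p of any member. It stood at 27.5, 62.9 and 53.1 normalised CPM in normal 1 to 3, at 33.9, 35.7 and 14.7 in irradiated 1 to 3 and at 64.8, 98.3 and 122.5 in cocultured 1 to 3. Every cocultured library exceeded every other one. The log2 fold change was -1.76 ± 0.60 (SE, n = 3 each) in irradiated against cocultured constructs, with an unadjusted p of 0.0118 and an edgeR adjusted p of 0.493, and 0.99 ± 0.59 in cocultured against normal constructs (edgeR adjusted p = 1). Its adjusted p in irradiated against cocultured ran from 0.292 to 0.718 as each library was left out. Psma2 had 214, 299 and 93.6 normalised CPM in normal, 145, 149.6 and 36.0 in irradiated and 102, 189 and 155 in cocultured libraries, and its log2 of -0.88 ± 0.55 in irradiated against normal constructs did not pass (edgeR adjusted p = 0.732). Psma7 was steadier, at 355, 278 and 369.7 in normal, 386, 161 and 278 in irradiated and 229.5, 332.5 and 255 in cocultured libraries. Its groups overlapped in all comparisons. Psma3 stood at 23.6 to 41.9 in normal and 42.5 to 57.3 in cocultured libraries, which did not overlap, and at 37.4 to 61.4 in irradiated ones. Psma4 and Psma6 overlapped between groups, while Psma5 had no count in irradiated 2 and irradiated 3 and 17.8 to 45.0 normalised CPM in normal libraries (log2 -2.08 ± 2.11 against normal). These 2 irradiated libraries lacked counts for more genes than any other, and the part of this in the Psma5 value was not tested.

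The ATPase subunits form the ring that unfolds substrates and opens the gate of the core. Psmc1 was the member with the smallest p against normal constructs in both comparisons, which share the normal libraries. It stood at 585, 524 and 359 normalised CPM in normal 1 to 3, at 387, 247 and 233 in irradiated 1 to 3 and at 242, 313 and 265 in cocultured 1 to 3. After TMM scaling all cocultured libraries lay below all normal ones, and irradiated 1 lay above normal 3. By library totals Psmc1 was lower in normal 3 than in every cocultured library. Its log2 fold change was -0.76 ± 0.33 in irradiated (unadjusted p = 0.0363, edgeR adjusted p = 0.483) and -0.84 ± 0.33 in cocultured constructs (unadjusted p = 0.0230, edgeR adjusted p = 1). Psmc3, at 252, 362 and 315 in normal and 429, 446 and 311 in irradiated libraries, had a log2 of 0.35 ± 0.30 against normal (edgeR adjusted p = 0.998) and 0.39 ± 0.30 against cocultured constructs, which stood at 272, 274 and 362 (edgeR adjusted p = 0.837). Its last exon overlaps Slc39a13 on the opposite strand in GENCODE M21. Psmc5 had 23.8, 42.5 and 93.9 normalised CPM in normal, 128, 36.3 and 92.9 in irradiated and 35.5, 43.5 and 31.1 in cocultured libraries. Irradiated 1 and irradiated 3 were the high ones, and irradiated 2 lay among the cocultured libraries. The log2 of Psmc5 was 0.69 ± 0.65 against normal (edgeR adjusted p = 1) and 1.23 ± 0.65 against cocultured constructs (edgeR adjusted p = 0.521). Psmc2, Psmc4 and Psmc6 had log2 fold changes of -0.60 to 0.40 in the 2 comparisons against normal.

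Of the 11 non-ATPase subunits of the regulatory particle, 8 had negative log2 fold changes in irradiated and 9 in cocultured constructs against normal, and none passed. Among all genes 58.2% and 53% were negative. These signs are of TMM-scaled values, and by library totals 17 and 5 of all 40 members were negative. Psmd14, the deubiquitinase that removes ubiquitin from a substrate as it is degraded, stood at 57.7, 48.9 and 71.7 normalised CPM in normal, 23.6, 179.5 and 41.1 in irradiated and 93.3, 153.5 and 89.1 in cocultured libraries. The cocultured libraries lay above the normal ones, while irradiated libraries lay on both sides of them (log2 0.91 ± 0.65 in cocultured against normal, edgeR adjusted p = 1). Psmd13, a scaffold subunit of the lid, had 188, 206 and 212 in normal, 188, 36.1 and 86.1 in irradiated and 118, 91.4 and 165 in cocultured libraries. Its log2 was -0.97 ± 0.50 in irradiated (edgeR adjusted p = 0.541) and -0.69 ± 0.50 in cocultured constructs (edgeR adjusted p = 1). The first of these was -1.72 without irradiated 1 (edgeR adjusted p = 0.122) and -0.56 without irradiated 2 (edgeR adjusted p = 0.703). Psmd6, another lid subunit, stood at 91.6, 120.4 and 78.8 in normal, 177, 68.7 and 163 in irradiated and 79.4, 73.3 and 84.3 in cocultured libraries. Its log2 of 0.49 ± 0.43 against normal (edgeR adjusted p = 1) and 0.78 ± 0.43 against cocultured constructs (edgeR adjusted p = 0.540) did not pass.

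After TMM scaling, Psmd4, which encodes a ubiquitin receptor, and Psmd7, the partner of Psmd14, were highest in the 2 libraries rich in muscle transcripts. Psmd7 stood at 137, 154.5 and 548 normalised CPM in normal, 302, 181 and 153 in irradiated and 128, 185.5 and 211 in cocultured libraries. Psmd4 stood at 299.9, 311 and 612 in normal, 436.5, 190.1 and 323 in irradiated and 253, 319 and 290.1 in cocultured libraries. On this scale both were highest in normal 3 and next highest in irradiated 1, the libraries with 66593 and 38611 normalised CPM of muscle markers. These 2 libraries also had the lowest TMM factors, 0.556 and 0.728. By library totals Psmd4 was highest in irradiated 3. Psmd7 stayed highest in normal 3 on that scale, but irradiated 1 lay below cocultured 3. Normal 3 held the highest normalised value of 12.5% of members and 14.2% of all tested genes. The part of the muscle genes in the result was not tested. The log2 of Psmd7 in cocultured against normal constructs was -0.68 ± 0.51 (edgeR adjusted p = 1) and turned to 0.26 without normal 3. Psmd1 and Psmd2, the large scaffold subunits, had 224 to 609 and 151 to 474 normalised CPM over the 9 libraries. After TMM scaling Psmd2 was lower in every cocultured than in every normal library (224 to 297 against 312 to 358), with a log2 of -0.35 ± 0.41. By library totals these groups overlapped. Psmd8 was lower in every irradiated than in every normal library with TMM (133 to 179 against 197 to 262, log2 -0.45 ± 0.33, edgeR adjusted p = 0.867). Its groups too overlapped by library totals. The remaining members of this class, Psmd3, Psmd11 and Psmd12, had log2 fold changes of -0.49 to -0.26 against normal in the 2 comparisons.

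Psmd5, Psmd9 and Psmd10 encode chaperones that assist assembly of the regulatory particle and are not part of the finished enzyme. Psmd9 stood at 25.5, 25.2 and 21.1 normalised CPM in normal, 28.1, 0 and 35.3 in irradiated and 26.2, 8.58 and 0.113 in cocultured libraries, so it was near 0 in 1 library of each exposed group. Psmd5 was 23.6 to 27.7 in normal, 10.9 to 42.8 in irradiated and 22.8 to 61.8 in cocultured libraries. Psmd10 was 41.9 to 64.9, 17.2 to 60.4 and 22.3 to 52.1. None of the 3 passed in any comparison.

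The activator genes encode caps that open the core without ATP. Psme1 and Psme2, whose products form an interferon-inducible ring together, gave negative values in irradiated and positive values in cocultured constructs against normal. Psme1 stood at 23.4, 34.3 and 56.1 normalised CPM in normal, 29.8, 22.7 and 18.3 in irradiated and 53.7, 53.7 and 72.8 in cocultured libraries. Psme2 stood at 13.3, 55.0 and 12.6 in normal, 21.7, 15.9 and 12.6 in irradiated and 18.1, 47.5 and 62.2 in cocultured libraries. All irradiated libraries lay below all cocultured ones for Psme1, while for Psme2 irradiated 1 lay above cocultured 1. In irradiated against cocultured constructs the log2 was -1.35 ± 0.68 for Psme1 (edgeR adjusted p = 0.499) and -1.35 ± 0.98 for Psme2 (edgeR adjusted p = 0.779). Against normal both had -0.69 in irradiated and 0.66 in cocultured constructs, and none of these passed. The last exon of Psme1 overlaps Emc9 on the opposite strand in GENCODE M21. Psme2b, a near-copy of Psme2 with a row of its own, had 18 counts in all.

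Psme3, whose product forms the activator ring of the nucleus, stood at 42.5, 35.9 and 21.1 normalised CPM in normal, 56.0, 34.9 and 19.1 in irradiated and 12.7, 48.7 and 21.4 in cocultured libraries, with full overlap. Psme4, a single-chain activator, had 109.9, 95.4 and 170.5 in normal, 100.3, 16.6 and 178.5 in irradiated and 145, 172 and 194.5 in cocultured libraries. Its low value was again in irradiated 2. Psmf1, the gene of an inhibitor of the core, had no count in normal 1, normal 3 and irradiated 3. It stood at 27.7 in normal 2, 49.6 in irradiated 1, 0.0940 (1 count) in irradiated 2 and 25.4, 22.2 and 31.9 in cocultured libraries. Psmf1 thus had counts in all 3 cocultured libraries and was at or near 0 in 2 libraries of each other group, and its log2 of 1.52 ± 2.45 in cocultured against normal constructs did not pass (edgeR adjusted p = 1).

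**Figure D4:**
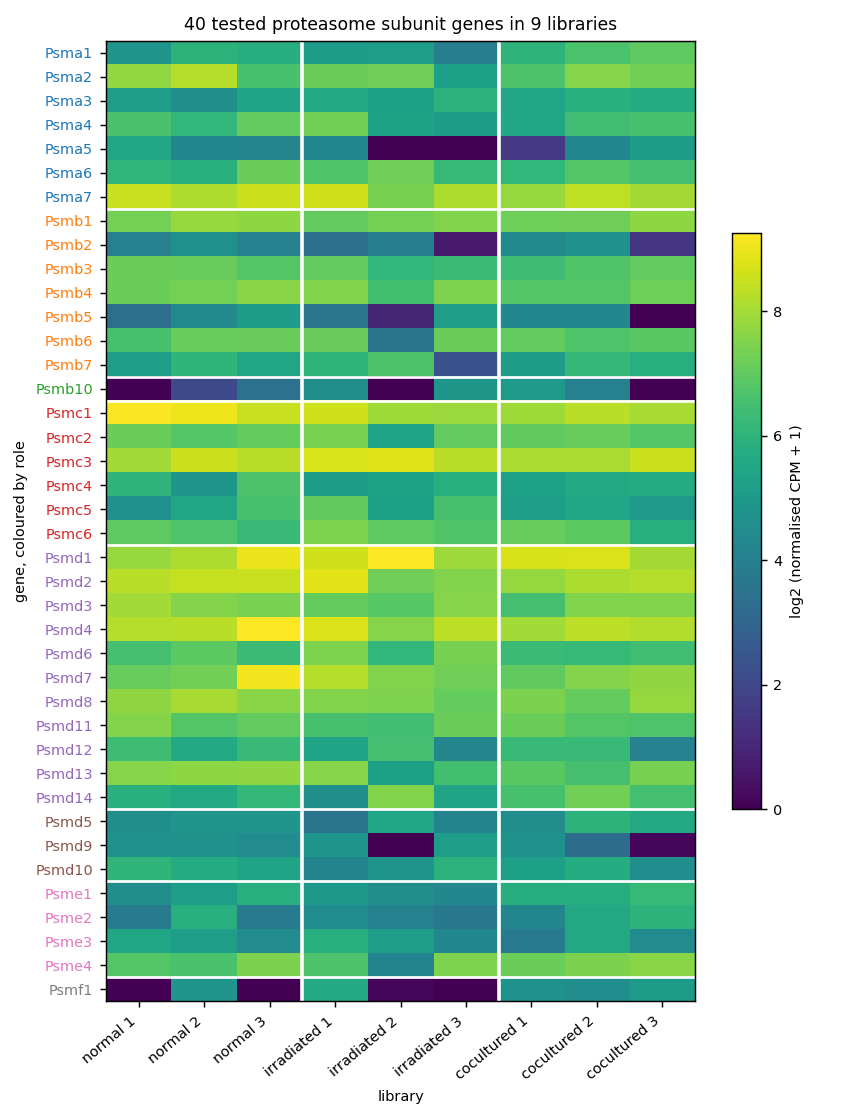
Heat map of the 40 tested genes (rows, coloured by role) in the 9 libraries (columns), as log2 of normalised CPM plus 1. Dark cells in irradiated 2 (Psma5, Psmb5, Psmb10, Psmd9, Psmf1), irradiated 3 and cocultured 3 stand between genes at full level. Normal 1 (Psmb10, Psmf1) and normal 3 (Psmf1) also have cells at 0.

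Members differed in how far they followed one another between libraries. The Pearson correlation of a member's log2 CPM with the mean of the other 39 across the 9 libraries, a description since these points share libraries and scaling, was above 0 in 32 of 40. It was highest for Psmd2 (0.83), Psma7 (0.77), Psmc2 (0.75) and Psmd13 (0.71), and lowest for Psmd14 (-0.39) and Psmc3 (-0.32). Of 37 members with a single lowest library, 12 had it in irradiated 2 (32.4%) and 9 in irradiated 3 (24.3%), as did 24.0% and 20.9% of all tested genes with a single lowest library. Mean levels over the 9 libraries ran from 12.4 normalised CPM (Psmb10) to 373 (Psmd1), and since reads come from the 3′ end and were not divided by length, genes are not ranked by them.

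The genes that build, feed and control the proteasome gave no called member in any of the 3 comparisons. Of 20 assembly factors and associated proteins 19 were tested, with a median log2 of -0.22 in irradiated and -0.03 in cocultured constructs against normal. Rad23b, a shuttle that brings ubiquitin-tagged proteins to the proteasome, averaged 99.5 ± 28.3 normalised CPM in irradiated and 176 ± 35.7 in normal constructs (SD, n = 3 each), with a log2 of -0.82 ± 0.35 (edgeR adjusted p = 0.483). Txnl1, a thioredoxin-like protein bound to the regulatory particle, averaged 63.2 ± 7.14 in irradiated, 80.8 ± 9.38 in cocultured and 124 ± 44.8 in normal constructs (log2 -0.97 ± 0.42 and -0.62 ± 0.41). Zfand5, which stimulates the proteasome, averaged 139 ± 15.4 in cocultured and 87.9 ± 27.3 in normal constructs (log2 0.66 ± 0.41). None of these passed.

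Nfe2l1, the transcription factor of the proteasome genes, averaged 182 ± 27.7 normalised CPM in cocultured and 298 ± 22.6 in normal constructs, with a log2 of -0.71 ± 0.29 (unadjusted p = 0.0306, edgeR adjusted p = 1). It stood at 307, 272 and 314 in normal, 289.8, 229 and 259 in irradiated and 185, 153 and 208 in cocultured libraries. With TMM the cocultured libraries lay below all others, while by library totals normal 3 lay below every cocultured library. Nfe2l2, a relative of Nfe2l1 and the factor of oxidative stress, averaged 343 ± 82.7 in irradiated and 280.5 ± 26.7 in normal constructs (log2 0.29 ± 0.30). Of the 8 genes of this list 6 were tested. Maff, a small partner of these factors, averaged 14.0 ± 18.0 in irradiated and 68.4 ± 24.9 in normal constructs, with a log2 of -2.28 ± 1.29 (edgeR adjusted p = 0.625). It stood at 7.67, 0 and 34.4 in irradiated 1 to 3. Irradiated 2 had the most tested genes without a count (34.7%), and the part of this in the Maff value was not tested. Ngly1, the enzyme that activates Nfe2l1, averaged 9.99 ± 8.80 in cocultured and 15.7 ± 12.1 in normal constructs (log2 -0.65 ± 2.00).

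All 6 ubiquitin genes and activating enzymes were tested. Rps27a, which encodes ubiquitin fused to a ribosomal protein, averaged 170.3 ± 138 normalised CPM in irradiated, 129.5 ± 14.6 in cocultured and 96.5 ± 0.922 in normal constructs (log2 0.82 ± 0.49 and 0.42 ± 0.48). Irradiated 2 alone set the irradiated mean, at 328.8. Irradiated 1 (76.7) lay below and irradiated 3 (105.5) above the normal libraries (95.5 to 97.3). Of the 11 genes around the Vcp segregase, which extracts proteins for degradation, Ubxn4 averaged 364 ± 62.0 in irradiated and 237 ± 38.9 in normal constructs, with a log2 of 0.62 ± 0.31 (edgeR adjusted p = 0.511), and Ufd1 131 ± 55.1 and 77.3 ± 42.7 (log2 0.76 ± 0.50). In cocultured constructs Derl1 averaged 107 ± 30.7 against 59.2 ± 35.0 in normal (log2 0.85 ± 0.59) and Faf2 93.9 ± 21.2 against 55.3 ± 35.7 (log2 0.76 ± 0.66). Among the 6 ubiquitin ligases of muscle, Fbxo32, the ligase of muscle atrophy, averaged 146 ± 191 in irradiated and 239 ± 133 in normal constructs (log2 -0.71 ± 0.81). With TMM its highest values, 389.7 and 365 normalised CPM, were those of normal 3 and irradiated 1, the libraries rich in muscle markers. Irradiated 2 and 3 had 57.2 and 15.6. By library totals Fbxo32 stayed highest in irradiated 1, but cocultured 3 lay above normal 3. The part of the muscle markers in these values was not tested. Stub1, a ligase that works with chaperones, averaged 110.3 ± 74.0 in irradiated, 115 ± 52.2 in cocultured and 186 ± 56.3 in normal constructs (log2 -0.76 ± 0.51 and -0.70 ± 0.51), and Nedd4 averaged 864 ± 174 in cocultured and 578 ± 69.7 in normal constructs (log2 0.58 ± 0.33).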

How the data were processed

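The deposited values are raw counts per gene symbol, 1 library per file, per the file headers. The kit was a QuantSeq 3′ kit, per the labels' protocols, which reads the transcript end. The submitters' processing notes name STAR, HTSeq, FastQC and build GRCm39. For annotation and strand setting the sources used here give nothing. Column names carry replicate numbers higher by 1 than the labels, so each file was tied to its sample by the series' file record. With R 4.3.3 and edgeR 4.0.16, all 9 libraries entered a single quasi-likelihood fit by group, after filterByExpr (11980 genes left) and TMM scaling. P-values were adjusted over all genes (Benjamini-Hochberg, called under 0.05). Standard errors are the log2 fold change over the square root of F. limma 3.58.1 (voom) and DESeq2 1.42.0 were alternatives. On data simulated with the spread of these libraries the edgeR test missed most of the changed genes. Those genes were drawn from all well-counted genes, so the share does not describe the members, whose standard errors were smaller. Depth was 4840993 to 8290468 counts per library, and limits cover counting error only, since reads carry no stated molecular identifiers.

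Members, lists and the rule for named genes were chosen with earlier results of these data known. The rule names 13 panel subunits, the 3 members of smallest p per direction and comparison, untested members with counts, and up to 2 genes per pathway list and comparison against normal. Values outside it were named after they were seen. A pathway gene chosen by this rule is not reported here. Promoter windows came from RefSeq, build GRCm38.p6, and overlapping exons from GENCODE M21, both of another build than the files, so they were joined by symbol.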

Additional observations from a re-analysis of the deposited data

How the results depend on the processing

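No proteasome subunit was called in any of the 3 comparisons under any alternative run: other scalings, filters, tests, thresholds, left-out libraries or the replicate block. Counts over all genes did vary, from 7, 0 and 4 (irradiated against normal, cocultured against normal, irradiated against cocultured) to 455, 124 and 529 with DESeq2, 130, 52 and 153 without a filter, 25, 0 and 105 with limma voom and 23, 0 and 12 with the replicate block. They were 0 in each with the 6 libraries alone, 24, 0 and 2 at 50 CPM or more, 9, 0 and 9 with library totals, 21, 0 and 8 at an adjusted p under 0.1, 20, 1 and 21 without both normal 3 and irradiated 1, and 190, 96 and 449 without both irradiated 2 and irradiated 3. With 1 library left out they ran from 6 to 147, stayed at 0 and ran from 1 to 97, highest without irradiated 1.

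The members' median log2 fold change kept its sign in the comparisons with normal constructs except with library totals (0.074 and 0.26) and, for irradiated constructs, without both irradiated 2 and irradiated 3 (0.037). With 1 library left out it ran from -0.42 to -0.17 in irradiated and -0.28 to -0.15 in cocultured constructs. In irradiated against cocultured it turned with DESeq2's size factors (0.043) or test (0.044), at 50 CPM or more (0.072) and without both irradiated 2 and irradiated 3 (0.24), and ran from -0.13 to 0.089 with 1 library left out, positive without irradiated 2 or cocultured 2. With the replicate block the medians were -0.40, -0.26 and -0.15. Deviations of same-numbered libraries correlated by -0.07 to 0.05, and those of differently numbered libraries of different groups by -0.08 to 0.09. These values show no pairing by number, but with so few libraries they cannot exclude a shared dish or batch. Psmd7 in cocultured against normal constructs turned with library totals (0.12) and without both normal 3 and irradiated 1 (0.26), and ran from -0.97 to 0.26 with 1 library left out. Without mitochondrial genes and Gm26917 in the totals, members took 0.661%, 0.690% and 0.388% of normal 1 to 3, 0.493%, 0.560% and 0.579% of irradiated 1 to 3 and 0.552%, 0.661% and 0.611% of cocultured 1 to 3, so all 3 groups overlapped. The causes were not tested.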
